A study of Mus musculus with 6 samples.

Results

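The 7 retinoid handling genes Rbp3, Rdh8, Rdh11, Rdh12, Dhrs3, Dhrs7 and Retsat were followed in sorted cones of mice labelled as cone knockouts of the clock gene Bmal1 and of their controls. They were taken by symbol and not by a rule on their values, although earlier results of these data were known. All 7 are among the 9720 protein-coding genes of the deposited table. The knockout cones came from HRGPcre;Bmal1f/f;Z/EG mice, which carry floxed copies of Bmal1 on both chromosomes, and the control cones from HRGPcre;Bmal1f/+;Z/EG mice, which carry 1 floxed and 1 intact copy. Both groups share the HRGPcre transgene, in which a human red/green pigment promoter drives Cre in cones, and the Z/EG reporter, which gives eGFP once Cre has acted, so a control cone is heterozygous for Bmal1 after recombination and not wild type. All mice were C57BL/6 with mixed background, lived under a light and dark cycle of 12 h each, and were adult, and the age label reads postnatal day 60 to 80 but adds 2 to 6 months. eGFP-positive cells were sorted from dissociated neural retinas, and poly(A) RNA of 3 libraries per group was sequenced. The labels do not tell how many animals went into a library, so each p-value reflects the spread among libraries, part of which may be technical. Values are FPKM, which scale fragments to transcript length and to the library, so levels can be set side by side between genes.

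Photoreceptors detect light with retinal, a vitamin A aldehyde bound to opsin, which light turns from its cis to its all-trans form. The released all-trans-retinal is reduced to retinol by dehydrogenases of the photoreceptor, retinol leaves the cell, and the pigment epithelium, or for cones also Müller glia, returns a cis retinoid. The interphotoreceptor retinoid-binding protein, the product of Rbp3, carries retinoids through the space between these cells. Cones recycle pigment fast and in bright light, so both steps are central to daylight vision.

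No member passed an adjusted p of 0.05 between knockout and control cones. Rbp3 and Rdh12 were far more abundant than the other 5 genes in every library, at about the same level of Rbp3 in both groups and with the largest difference of the set in Rdh12, 1.47 times as high in knockout as in control by the ratio of means. Of the 6 members tested, 0 were called in limma, where 0.104% of the 8627 tested genes were called, and 0 of the 6 reached an unadjusted p under 0.05, against 5.49% of all tested genes. Retsat averaged 0.768 FPKM over the 6 libraries, below the minimum mean of 1 FPKM, and so was not tested. Of the 6 log2 differences, knockout minus control on the scale of log2(FPKM + 1), 3 were positive and 3 negative, with a median of 0.01, beside a median of -0.02 over all tested genes. The members' values overlapped between the groups for 7 of 7 genes, whereas the groups did not overlap for 9.39% of tested genes.

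The identity of the cells and the depth of the libraries bear on every value. All 10 cone markers were in the table, at means from 16.1 to 1464 FPKM. They summed to between 5523 and 6666 FPKM in knockout and between 4108 and 6923 FPKM in control libraries. All 14 rod markers were there too, led by Pde6g and Sag, with summed levels from 2451 to 3526 FPKM in knockout and from 2933 to 3596 FPKM in control libraries. Rods also use Rbp3, Rdh8 and Rdh12, and the part of rod RNA in their levels was not tested. Of 11 Müller glia markers 7 were in the table, led by Car2 and Clu, and summed to between 101 and 111 FPKM in knockout and between 91.8 and 120.2 FPKM in control. Of 9 bipolar markers 8 were there, led by Otx2, which photoreceptors also express, and Lrtm1, and summed to between 93.1 and 107.5 FPKM in knockout and between 83.5 and 117.5 FPKM in control. Of 10 pigment epithelium markers only Rdh5 was in the table. Read depth is unknown, the FPKM sum was lowest in control 1 (84995) and highest in control 3 (128773), and control 1 also held the lowest value of 5 of the 7 members. The share of all tested genes lowest in control 1 was not counted, so this is not particular to the members. Nr1d1, a direct BMAL1 target, measured 4.13 ± 1.11 FPKM in knockout and 47.2 ± 8.98 FPKM in control (SD, n = 3 each; adjusted p = 0.00013, limma). Cplx3, a complexin of ribbon synapses, had a mean of 4.82 ± 0.81 FPKM in knockout and 21.4 ± 3.14 FPKM in control (SD, n = 3 each; adjusted p = 0.0018, limma). Arntl, which encodes BMAL1, measured 3.05 ± 0.66 FPKM in knockout and 2.96 ± 0.34 FPKM in control, and its whole-gene value does not check the genotype labels. In sorted bulk cells, fewer cells of a type and less RNA per cell cannot be told apart.

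**Figure D1:**
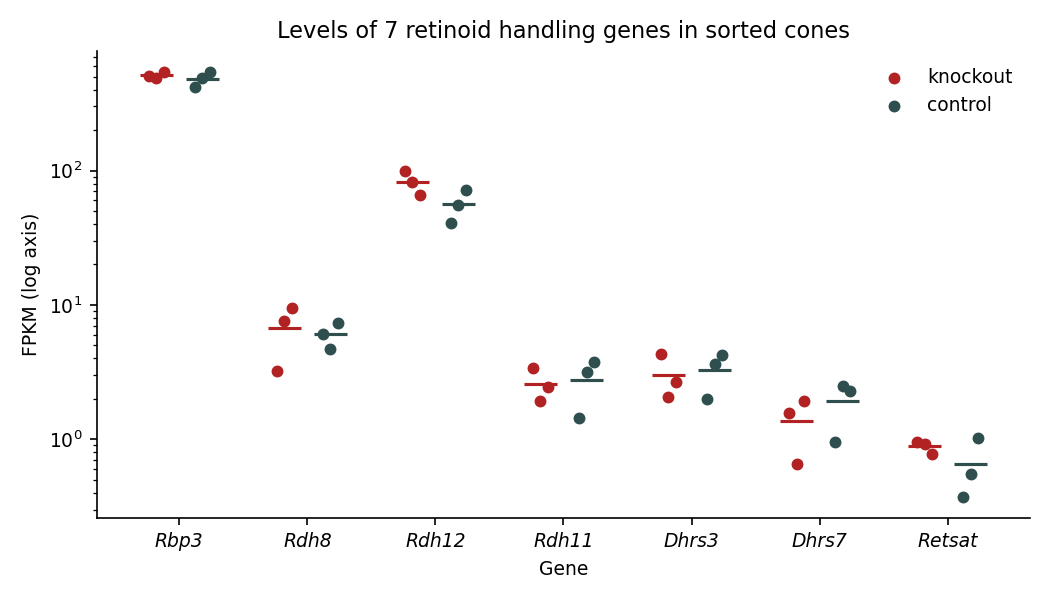
Level of each gene in FPKM on a log axis, with 1 point per library, knockout left of control, and a line at the group mean. Rbp3 lies between 416 and 542 FPKM and Rdh12 between 40.4 and 98.5 FPKM, while the other 5 genes stay below 10 FPKM, and the points of the groups overlap for every gene.

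Rbp3, the retinoid carrier of the interphotoreceptor space, is annotated at chr14:33954003-33964216 (GRCm38, plus strand) and has 1 annotated transcript. It read 502, 488 and 542 FPKM in knockout libraries 1 to 3, against 416, 487 and 538 FPKM in control libraries 1 to 3. The lowest value was control 1, and the other 5 libraries lay between 487 and 542 FPKM. The mean was 510.5 ± 27.9 FPKM in knockout and 480.4 ± 61.5 FPKM in control (SD, n = 3 each), a log2 difference of 0.09 with a 95% interval from -0.50 to 0.69 (adjusted p = 0.9996, limma), whose sign turned without control 1. By mean level it was gene 15 of the 9720 in the table. It also varied least of the 7 in relation to its mean, with a coefficient of variation of 5.47% in knockout and 12.8% in control.

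The 250 bases before the annotated start of Rbp3 are shown because this was the most abundant member, and the only member whose upstream window holds the letters TAATCC or their complement, the core that the photoreceptor homeobox factor CRX binds. The sequence is from RefSeq (GRCm38.p6, chr14:33953753-33954002, plus strand), written 5′ to 3′ with the match, which starts at base -69 on the complementary strand, in capitals.
Rbp3: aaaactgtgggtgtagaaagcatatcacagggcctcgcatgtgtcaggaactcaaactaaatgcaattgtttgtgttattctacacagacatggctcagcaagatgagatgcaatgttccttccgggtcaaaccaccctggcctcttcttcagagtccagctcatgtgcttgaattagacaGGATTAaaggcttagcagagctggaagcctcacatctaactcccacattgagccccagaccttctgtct
The same letters, searched on both strands, were found upstream of 6.92% of the 7468 genes of the table that have a RefSeq promoter.

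Rdh8 encodes the photoreceptor retinol dehydrogenase of the outer segment, where all-trans-retinal is released from opsin. Its position is chr9:20818503-20826117 (plus strand). It read 3.20, 7.58 and 9.54 FPKM in knockout libraries, against 6.09, 4.69 and 7.32 FPKM in control libraries. Knockout 1 was the lowest and knockout 3 the highest of all 6 libraries, so the knockout values enclosed the control ones. The mean was 6.77 ± 3.24 FPKM in knockout and 6.03 ± 1.32 FPKM in control, a log2 difference of 0.06 with a 95% interval from -0.63 to 0.75 (adjusted p = 0.9996, limma). The sign of this difference turned when knockout 2, knockout 3 or control 2 was left out, and with the rod marker covariate.

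Rdh12 encodes the retinol dehydrogenase of the inner segment, which reduces retinal that escapes from the outer segment and is mutated in a form of human childhood retinal dystrophy. Its position is chr12:79208914-79222665 (plus strand). It read 98.5, 82.2 and 65.4 FPKM in knockout libraries, against 40.4, 55.8 and 71.6 FPKM in control libraries. Knockout 1 and knockout 2 lay above every control library, and knockout 3 lay below control 3 and above the other two. The mean was 82.0 ± 16.5 FPKM in knockout and 55.9 ± 15.6 FPKM in control (SD, n = 3 each). The log2 difference, 0.56 ± 0.28 (SE; 95% interval -0.04 to 1.16), did not pass (unadjusted p = 0.065, adjusted p = 0.897, limma). By unadjusted p it was gene 620 of the 8627 tested.

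The Rdh12 values depended in part on how libraries were scaled. After median-ratio scaling they were 100.9, 84.9 and 62.5 FPKM in knockout, against 45.9, 56.4 and 60.4 FPKM in control, and the groups no longer overlapped. Rbp3 did not overlap on that scale either, at 514, 504 and 518 FPKM in knockout, against 472, 493 and 454 FPKM in control. With each library scaled to the same FPKM sum instead, the Rdh12 groups did not overlap either. Rdh12 was then 101.6, 84.7 and 64.4 FPKM in knockout, against 50.1, 55.0 and 58.6 FPKM in control. Rbp3 did overlap on this sum scale, at 518, 503 and 534 FPKM in knockout, against 515, 480.1 and 440.2 FPKM in control. The share of all tested genes without overlap was not counted on the sum scale. On the median-ratio scale every knockout library lay above every control library for 6.55% of tested genes. The Rdh12 log2 difference was then 0.58 (unadjusted p = 0.028, adjusted p = 0.703, limma), where 6.76% of tested genes had an unadjusted p under 0.05, and over the 16 alternative settings its adjusted p ranged from 0.464 to 0.9996. With the rod markers as a covariate the log2 difference was 0.43, and without control 1 it was 0.35, against 0.76 without control 3.

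The window upstream of Rdh12 is shown because this gene had the largest difference of the set. It is from RefSeq (GRCm38.p6, chr12:79208663-79208912, plus strand), and it holds none of the 4 motifs searched, so no letter is in capitals. The motifs were CACGTG, the E-box to which BMAL1 and CLOCK bind, TAATCC for CRX, TTATGTAA, the D-box of PAR bZIP factors, and AGGTCA, the core site of REV-ERB and ROR receptors, each on both strands.
Rdh12: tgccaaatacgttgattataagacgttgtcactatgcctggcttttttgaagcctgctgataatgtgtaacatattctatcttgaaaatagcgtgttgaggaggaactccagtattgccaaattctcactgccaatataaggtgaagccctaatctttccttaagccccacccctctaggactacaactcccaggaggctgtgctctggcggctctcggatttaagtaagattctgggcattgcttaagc
A window without these letters says nothing of binding by the factors elsewhere.

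Rdh11, the closest relative of Rdh12 in the set, also reduces retinal and lies next to it at chr12:79174337-79192293 (minus strand). The genes point away from each other with 16.6 kb between them and no protein-coding gene in that gap. Rdh11 read 3.41, 1.91 and 2.45 FPKM in knockout libraries, against 1.44, 3.15 and 3.75 FPKM in control libraries. Control 1 was lowest and control 3 highest, with all knockout values between them. The mean was 2.59 ± 0.76 FPKM in knockout and 2.78 ± 1.20 FPKM in control, a log2 difference of -0.04 with a 95% interval from -0.64 to 0.57 (adjusted p = 0.9996, limma). Its sign turned with quantile normalization and without knockout 2, control 2 or control 3.

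The neighbours thus stood at unlike levels. Rdh12 was 28.9, 43.0 and 26.7 times as high as Rdh11 in knockout libraries, against 28.1, 17.7 and 19.1 times in control libraries, a ratio that no scaling of a library can move. Knockout 1 and knockout 2 exceeded every control library in it, and knockout 3 lay below control 1. The ratio was chosen after its values were seen and was not tested. The coding sequences, both 951 bases long, were identical at 68.9% of 948 aligned bases, while the other pairs of dehydrogenases in the set were identical at 43.4% to 48.8%. The longest run of bases shared by any transcripts of Rdh11 and Rdh12 was 14, far below the read length of 150 bases.

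The window before the second RefSeq start of Rdh11 is shown because it alone among the members' 10 upstream windows holds an E-box. This window lies inside Rdh11 as annotated in GENCODE (79174337 to 79192293) and outside its exons. It is from RefSeq (GRCm38.p6, chr12:79190962-79191211, minus strand), written 5′ to 3′ with both E-boxes, which start at bases -230 and -182, in capitals. It also holds 1 AGGTCA, at base -147, in lower case.
Rdh11: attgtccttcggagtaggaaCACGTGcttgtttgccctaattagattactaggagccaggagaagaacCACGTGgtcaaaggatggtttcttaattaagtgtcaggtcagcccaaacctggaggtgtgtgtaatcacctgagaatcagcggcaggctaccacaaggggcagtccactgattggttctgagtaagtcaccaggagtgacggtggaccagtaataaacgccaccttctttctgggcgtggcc
An E-box was found upstream of 10.3% of the 7468 genes with a promoter, a D-box upstream of 0.482%, and AGGTCA upstream of 12.6%. The level of Rdh11 covers the whole gene, so it does not show which start was used.

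Dhrs3, a short-chain dehydrogenase that reduces all-trans-retinal and is known from cones, is at chr4:144892827-144928209 (plus strand). It read 4.30, 2.07 and 2.67 FPKM in knockout libraries, against 2.00, 3.62 and 4.25 FPKM in control libraries. Knockout 1 and control 3 were the highest, and control 1 and knockout 2 the lowest, so the groups covered the same range. The mean was 3.01 ± 1.16 FPKM in knockout and 3.29 ± 1.16 FPKM in control, a log2 difference of -0.10 with a 95% interval from -0.70 to 0.50 (adjusted p = 0.9996, limma). Its sign turned without knockout 2 or control 3.

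Dhrs7 encodes a dehydrogenase of the endoplasmic reticulum whose human protein reduces retinal and steroids in vitro. Its position is chr12:72650353-72664909 (minus strand), far from the Rdh11 and Rdh12 pair. It read 1.56, 0.650 and 1.93 FPKM in knockout libraries, against 0.956, 2.48 and 2.31 FPKM in control libraries. Control 2 and control 3 were above all knockout libraries, and control 1 was below knockout 1 and knockout 3. The mean was 1.38 ± 0.66 FPKM in knockout and 1.91 ± 0.83 FPKM in control, a log2 difference of -0.29 with a 95% interval from -0.92 to 0.34 (adjusted p = 0.985, limma). The size of the Dhrs7 difference depended on single libraries: it was -0.55 without control 1 (unadjusted p = 0.045, adjusted p = 0.483, limma) and -0.04 without knockout 2 (adjusted p = 0.9996, limma). With libraries weighted by their quality it was -0.55 (unadjusted p = 0.046, adjusted p = 0.435, limma). Other settings moved the Dhrs7 difference too, to -0.46 with a pseudocount of 0.1, -0.43 with equal FPKM sums and -0.48 with the rod marker covariate. Median-ratio scaling and quantile normalization gave -0.27 and -0.26.

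Retsat encodes retinol saturase, which turns all-trans-retinol into a dihydroretinol. Its position is chr6:72598475-72608425 (plus strand), with 61 bases to its neighbour Elmod3 and 6 bases to Tgoln1, both on the other strand. It read 0.949, 0.923 and 0.783 FPKM in knockout libraries, against 0.374, 0.548 and 1.03 FPKM in control libraries. The knockout values lay close together and inside the range of the control ones. With no filter on low values limma gave a log2 difference of 0.21 (95% interval -0.31 to 0.73, adjusted p = 0.968). Its exons overlap those of the antisense model Gm45053 by 650 bases, and whether counting used strand is not stated, so reads of these genes may not be told apart.

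**Figure D2:**
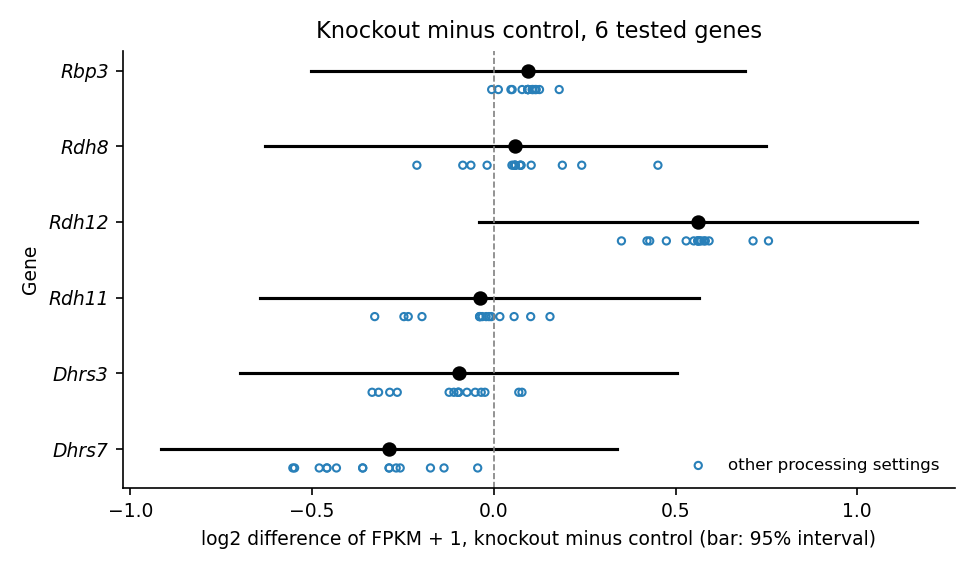
Log2 difference of FPKM + 1, knockout minus control, for the 6 tested genes, with the point as estimated by limma and the bar as its 95% interval; open circles are the same value under other processing settings. Every bar includes 0, and Rdh12 and Dhrs7 are the genes whose circles all lie on 1 side of 0, from 0.35 to 0.76 and from -0.55 to -0.04.

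The order of levels was Rbp3, Rdh12, Rdh8, Dhrs3, Rdh11, Dhrs7 and Retsat in knockout and in control cones alike. Rbp3 exceeded Rdh12 by 6.22 times in knockout and 8.59 times in control, and Rdh12 exceeded Rdh8 by 12.1 times in knockout and 9.27 times in control, each with no overlap of libraries. Rdh8 and Dhrs3 overlapped in knockout cones and did not in control cones, where the lowest Rdh8 value was 4.69 FPKM and the highest Dhrs3 value 4.25 FPKM. Dhrs3, Rdh11, Dhrs7 and Retsat, each next to the following one, overlapped in both groups. Among Rdh8, Rdh11, Rdh12 and Dhrs3, members with a known role in reducing all-trans-retinal, Rdh12 made up 90.0%, 87.7% and 81.7% of the summed level in knockout libraries, against 80.9%, 83.0% and 82.4% in control libraries. The shares hold for these genes only. Rdh14, a retinol dehydrogenase gene outside the set, averaged 10.8 FPKM in knockout and 10.2 FPKM in control and is not in the sum. Among the summed members, Rdh12 was thus the main transcript in all 6 libraries.

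Dhrs3 and Rdh11 followed each other most closely among the members. Over the 6 libraries the log2 values of Rdh11 and Dhrs3 had a Pearson r of 0.97 and a Spearman coefficient of 0.94, and the libraries differed along this line within both groups. Rdh12 and Retsat had r of 0.91 and a Spearman coefficient of 0.83, while Rdh12 and its neighbour Rdh11 had r of 0.56 and a Spearman coefficient of 0.49. Rdh8 went its own way, with r between -0.52 and 0.27 to the other 6 genes. These values are descriptions over 6 points that share library scaling, and 347 of the 8626 other tested genes had r above 0.9 with Rdh11.

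**Figure D3:**
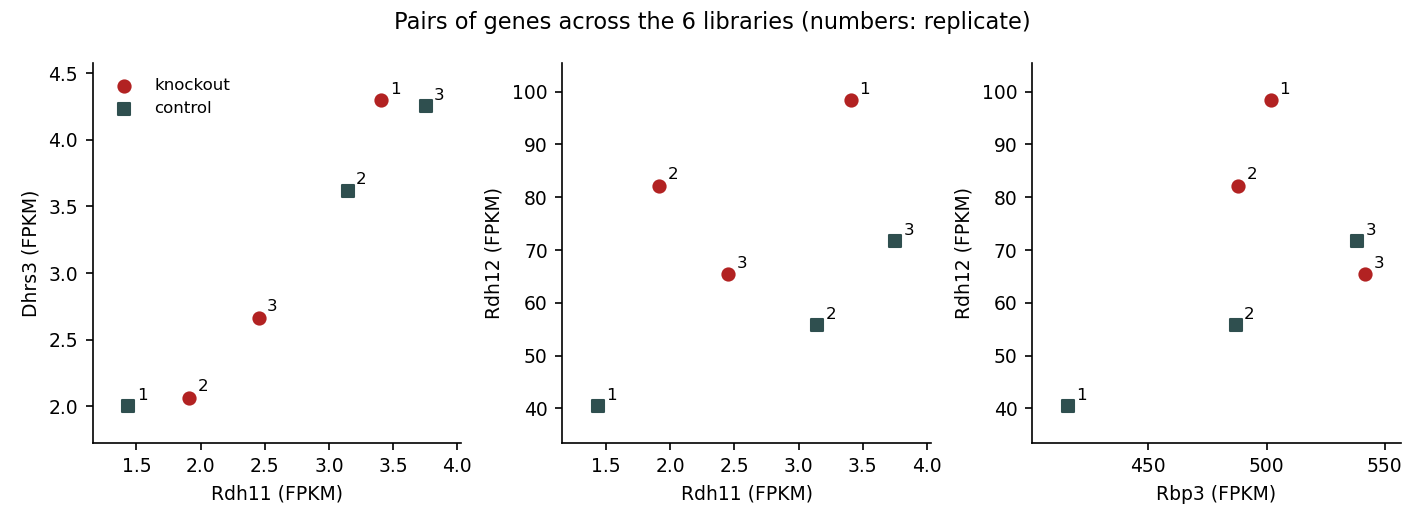
Levels in FPKM of Dhrs3 against Rdh11, Rdh12 against Rdh11 and Rdh12 against Rbp3, with 1 point per library, circles for knockout, squares for control and numbers for the replicate. Dhrs3 and Rdh11 lie along 1 line from control 1 (2.00 and 1.44 FPKM) upward with both groups mixed, while in the other panels knockout 1 and knockout 2 lie highest for Rdh12.

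The genes most like each tested member were sought among the 8627 tested genes, by Pearson r of log2 values over the 6 libraries. Retsat, not tested, was left out. For Rdh12 they were Lrit1 (r = 0.997) and 9930021J03Rik (r = 0.995). Lrit1, which encodes a leucine-rich repeat protein of photoreceptor synapses, read 68.4, 59.8 and 50.7 FPKM in knockout and 37.3, 46.3 and 52.8 FPKM in control. For Rbp3 they were Nudcd3 (r = 0.995) and Car2 (r = 0.994), for Rdh8 Dlg4 (r = 0.988) and Msi2 (r = 0.985), and for Rdh11 Selenof (r = 0.997) and Hdhd2 (r = 0.994). For Dhrs3 they were Wdr6 (r = 0.993) and Heatr3 (r = 0.985), and for Dhrs7 Ei24 (r = 0.995) and Cox17 (r = 0.992). None of these was another member, and 57 genes exceeded an r of 0.9 with Rdh8, against 392 with Rbp3.

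Part of the wider retinoid pathway was in the table, which leaves out genes low throughout. Of 41 further genes of retinoid transport, the visual cycle and retinoic acid signalling, 15 were in the table and 11 were tested, of which 0 were called in limma, 1, Rara, had an unadjusted p under 0.05, 3 lay above 0 and 8 below it, and their median log2 difference was -0.02. The pigment epithelium genes Rpe65 and Lrat were not among them. Abca4, the flippase that clears retinal from outer segment discs, was the most abundant at 83.4 ± 4.57 FPKM in knockout and 84.4 ± 13.3 FPKM in control (SD, n = 3 each), above the level of Rdh12 in control cones. Degs1, a desaturase proposed as a retinol isomerase of the cone cycle, measured 6.58 ± 0.71 FPKM in knockout and 6.21 ± 2.40 FPKM in control, and Rlbp1, the retinal-binding protein of Müller glia and pigment epithelium, 2.01 ± 0.12 and 2.19 ± 0.41 FPKM in knockout and control.

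Of that list the smallest unadjusted p values belonged to retinoid receptors. Rara, a retinoic acid receptor gene, read 1.34, 2.24 and 2.69 FPKM in knockout and 2.77, 4.48 and 3.67 FPKM in control. The groups did not overlap, and the log2 difference of -0.60 did not pass (unadjusted p = 0.031, adjusted p = 0.895, limma). Rara was the 1 gene without overlap among the 11 tested of that list, beside 9.39% of all tested genes. Rxra, a retinoid X receptor gene, averaged 2.44 ± 1.02 FPKM in knockout and 4.12 ± 1.65 FPKM in control (adjusted p = 0.8996, limma), and Rxrb averaged 1.30 ± 0.32 FPKM in knockout and 1.75 ± 0.22 FPKM in control (adjusted p = 0.96, limma). Rxrg, the retinoid X receptor of cones, averaged 3.62 ± 0.30 FPKM in knockout and 3.88 ± 1.63 FPKM in control.

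Of 45 other short-chain dehydrogenase genes, 5 of them also in the pathway list, 22 were in the table and 19 were tested. Of these 0 were called in limma, 0 had an unadjusted p under 0.05, 9 were positive and 10 negative, with a median of -0.01. Rdh14, a retinol dehydrogenase gene, was the most abundant at 10.8 ± 3.57 FPKM in knockout and 10.2 ± 4.17 FPKM in control, with means above those of Rdh8 and libraries that overlapped it. Hsd17b10, a mitochondrial dehydrogenase gene, averaged 1.18 ± 0.29 FPKM in knockout and 1.93 ± 0.33 FPKM in control with no overlap of libraries (unadjusted p = 0.071, adjusted p = 0.897, limma). It was the 1 gene without overlap among the 19 tested, beside 9.39% of all tested genes. Hsdl2 averaged 4.15 ± 1.54 FPKM in knockout and 5.81 ± 1.09 FPKM in control, and Cbr4, a carbonyl reductase gene, 6.67 ± 0.85 FPKM in knockout and 5.36 ± 0.94 FPKM in control, neither called.

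Rdh5, which makes the cis aldehyde in the pigment epithelium, read 0.356, 0.423 and 0.10 FPKM in knockout and 3.37, 0.10 and 1.12 FPKM in control. Control 1 was highest, and 0.1 FPKM is the lowest value the table holds. Among the genes that use or shut off the pigment, 5 of 7 were in the table and 0 of the 4 tested were called in limma, with 1, Opn1sw, at an unadjusted p under 0.05. Opn1sw and Opn1mw, the cone opsin genes, had log2 differences of 1.01 ± 0.32 and -0.48 ± 0.34 (SE), and Arr3, the cone arrestin gene, averaged 767 ± 107 FPKM in knockout and 646 ± 81.5 FPKM in control. Rdh12, at 0.56, lay between these opsin differences, and whether it differs from them or from Rbp3 was not tested.

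**Figure D4:**
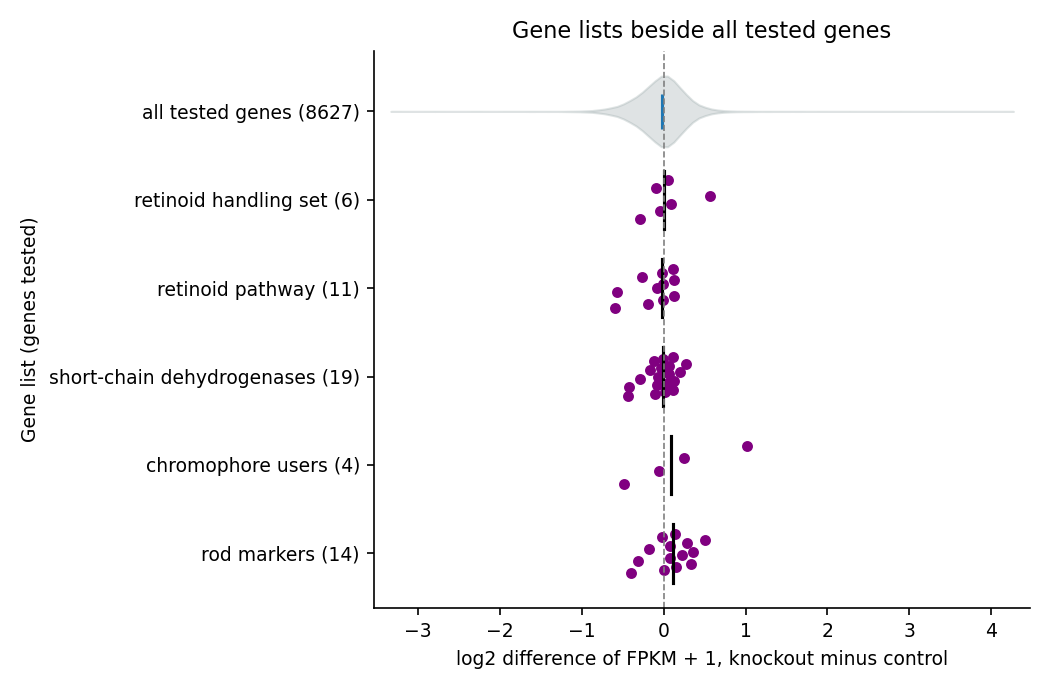
Log2 difference of FPKM + 1, knockout minus control, for each tested gene (points) of the retinoid handling set and 4 other lists, with a black line at the list median and the spread of all 8627 tested genes as the grey shape with its median in blue. The medians of the retinoid handling set (0.01), the retinoid pathway (-0.02) and the short-chain dehydrogenases (-0.01) lie near that of all tested genes (-0.02), and Rdh12 at 0.56 is the point farthest right in the first list.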

How the data were processed

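Poly(A) RNA of sorted cones was sequenced in 6 libraries, 3 knockout and 3 control, each from 100 ng of RNA (labels' protocols). The values are FPKM, deposited as a single table with a column per library. Per the submitters' processing notes the build was mm10, and HTSeq, DESeq2, Cufflinks 2.2.1 and TopHat2 2.1.0 were used, with no role stated; annotation and strand setting are not stated either. Every gene in the table exceeds 1 FPKM in at least 1 library, so genes low throughout were removed before deposit. FPKM keep no read total, so depth is unknown and no counting interval is given.

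Values were taken as log2(FPKM + 1), which understates changes of genes near 1 FPKM. The 8627 genes averaging 1 FPKM or more were fitted with limma 3.58.1 in R 4.3.3 (eBayes with trend, two-sided, Benjamini-Hochberg over all tested genes, threshold 0.05), and the fit was checked on simulated data. No covariate was used. Positions are from GENCODE M21 (GRCm38, the assembly of mm10), and 4 of the 7 member IDs had the same version there. Promoter sequences are from RefSeq GRCm38.p6, matched by symbol for 7 of 7 genes. Protein sequences were not used here. Coding sequences were aligned globally from GENCODE transcripts.

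The members, gene lists and tests were chosen with earlier results of these data known. Named genes are all members, from each other list its most abundant gene and the 3 with the smallest p, and the 2 most abundant markers of other cells. Also named are the 2 tested genes most correlated with each tested member, Arntl as the deleted gene, and Nr1d1 and Cplx3 as examples of called genes. Degs1, Rlbp1, Rxrg and Rdh5 were added for their role after values were seen. Alternatives covered pseudocount, filter, scaling, array weights, a rod covariate, a replicate block and leaving out each library.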

Additional observations from a re-analysis of the deposited data

How the results depend on the processing

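Of 93 member values under the 16 alternatives, 0 passed an adjusted p of 0.05 in limma and 11 changed sign, the cause of which was not tested. The log2 difference of Rdh11 was 0.017 with quantile normalization, and that of Rdh8 was -0.018 with the rod marker covariate. Leaving out each library in turn gave log2 differences from -0.0057 to 0.18 for Rbp3, from -0.21 to 0.45 for Rdh8, from 0.35 to 0.76 for Rdh12, from -0.33 to 0.15 for Rdh11, from -0.33 to 0.078 for Dhrs3 and from -0.55 to -0.04 for Dhrs7. Over all genes, 4 were called higher and 5 lower, against 11 higher and 12 lower with array weights. Leaving out each library gave 1 to 5 higher and 5 to 8 lower, with 1 higher without knockout 2 or control 2, 2 higher without knockout 1 or knockout 3, and 8 lower without control 1. With the replicate number as a block, 1 was called higher and 5 lower; same-numbered libraries had correlations of their deviations from the group means of -0.12, -0.09 and -0.03, so the numbers were not taken as pairs. Scaling moved the median log2 difference of all genes from -0.02 to between 0.00 and 0.02, and leaving out control 1 or control 3 moved it to -0.10 or 0.08.

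Unknown depth limits what can be said of the members below 10 FPKM, where single libraries differed by more than the groups did. The intervals of the 6 tested members are wide enough to include log2 differences of at least 0.5 in 1 direction, so no call is not evidence of equal levels.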
